A study of Rattus norvegicus with 3 samples.

Results

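Peroxiredoxins, thioredoxins and superoxide dismutases are enzymes and small redox proteins that remove superoxide and peroxides. The 10 genes described here (Prdx1, Prdx2, Prdx3, Prdx4, Prdx5, Prdx6, Txn2, Txnrd1, Sod1 and Sod2) were found through the RefSeq accession of each probe that was not a control spot, and all 10 were among the 14179 genes tested. Male Sprague-Dawley rats drank water with 200 ppm GABA (G200) or without it (control), and RNA of both groups' kidneys (non-tumor region) shared each of 3 Agilent arrays. According to the methods, GABA was given for 3 weeks to rats bought at the age of 5 weeks and kept for 1 week beforehand on a standard diet, with 8 rats per group where the sample labels give 3. On every array the control carried Cy3 (green) and G200 carried Cy5 (red), so dye and treatment cannot be told apart. All 3 arrays lay on 1 slide and were read in 1 scan.

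Superoxide that leaks from the respiratory chain or is made by oxidases is turned into hydrogen peroxide by superoxide dismutases, Sod2 in the mitochondrial matrix and Sod1 mainly in the cytosol. Peroxiredoxins then reduce the peroxide with a reactive cysteine, and most of them are recharged by thioredoxin, which thioredoxin reductase reduces at the expense of NADPH. Each compartment has its own set of these proteins, and the kidney tubule, which is rich in mitochondria, holds both sets at high levels. Prdx3, Prdx5, Txn2 and Sod2 were counted as mitochondrial (4 genes) and Prdx1, Prdx2, Prdx6, Txnrd1 and Sod1 as cytosolic (5 genes). Prdx4, the peroxiredoxin of the endoplasmic reticulum, was placed in neither group.

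In the G200 kidneys 5 of the 10 genes were called higher than in the control, all 4 mitochondrial genes and the cytosolic Prdx6, at an adjusted p under 0.05 in limma's test across all genes (the share of all tested genes called higher was 11.6%, and called in either direction 37.5%). None of the 10 (0) was called lower, against 25.9% of all genes tested. Without adjustment, 7 of the 10 were higher and 1, Txnrd1, was lower, beside 49.1% of all genes in either direction. The methods' t-test with unequal variance, run on the channels, called 0 after adjustment and 3 without it, and its form for the log ratios against 0, which has no second group, called 0 and 2, beside 29.5% and 31.6% of all genes without adjustment. The median log2 ratio of the 10 genes was 0.31, against -0.05 over all genes. Ratios are those of G200 over the control, so values above 0 mark more RNA in G200. The changes were modest, the largest being Prdx3 with 0.62 ± 0.16 (mean ± SD, n = 3 arrays).

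The size of every ratio depended on how the dyes were scaled. With median centring instead of loess, the median of all genes moved to 0.27 and 8 of the 10 genes were called higher, Sod1, Prdx1 and Prdx2 among them, beside 35.2% of all genes tested. With no normalization between the dyes the median of all genes was 0.62 and 9 of the 10 were called higher, beside 56.5% of all genes tested. Over all genes, 30.8% of the calls were higher with loess, 80.0% with median centring and 96.3% without dye normalization. Relative to the median of all genes, the median of the 10 genes stood 0.35 higher with loess and 0.65 higher with either of the other scalings. The lists of other mitochondrial proteins and other cytosolic enzymes, described below, stood 0.23 and 0.13 higher with loess. With either of the other scalings they stood 0.65 and 0.64 higher, so the 0.65 was not particular to the 10 genes.

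Over 1067 probes printed at least 5 times, the median SD between the probe means of the arrays was 0.03 in green and 0.11 in red. Between single replicate spots within an array it was 0.13 in either colour (all on the log2 scale). The median ratio of the between-array variance to the within-array variance was 0.07 in green and 0.70 in red. For the 10 genes, with 1 spot each, the SD of the control channels ran from 0.02 to 0.12. The design counted the green channels as 1 control sample where they differ no more than replicate spots, although the labels number 3 replicates. By SD the red channels met the same rule (0.11 beside 0.13) but were counted as 3 samples. The rule is lenient, since a mean over several spots varies less than a single spot. The arrays differed far less in green than in red, but whether the control was 1 sample was not tested. This count does not enter limma's test, which used the 3 log ratios, each with the green channel of its own array. If the green channels held 1 control sample, differences among control rats would be missing from the test. Every value rests on only 3 arrays.

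The RNA also differed in genes of other tissues before any antioxidant gene is considered. Of 20 liver marker genes, 20 were tested and all 20 were called lower in G200, with a median log2 ratio of -2.99. With loess 25.9% of all genes were called lower. Their medians were -1.59, -3.07 and -4.19 on replicates 1, 2 and 3, and Alb, the gene of serum albumin, had -2.06, -3.73 and -5.67. The summed normalized intensity of the list was 225040, 252440 and 262680 in the control channels and 66756, 26703 and 10722 in the G200 channels, its brightest gene was Tf (transferrin), and all 20 were well above background in the control on every array. With median centring 17 of the 20 were called lower, and the methods' t-test called 0 after adjustment (2 without). Liver transcripts thus stood above background in RNA labelled as kidney, most of all in the control. Of 10 red cell markers 7 were tested, 0 were called higher (0 without adjustment too, and 0 with the methods' t-test) and 3 lower in limma's test, the latter becoming 0 with median centring, with medians of -0.01, -0.20 and -0.96 on replicates 1, 2 and 3. Their summed intensity was 121620, 115670 and 134370 in the control and 122810, 98395 and 50949 in G200, Hba-a1 being the brightest, and Epb42 was on the array but not well above background. The part of either list in the antioxidant genes was not tested.

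Tested markers of kidney cells were well above background in all control channels. Of 11 proximal tubule markers 10 were tested, 4 were called higher and 1 lower. Of 6 thick ascending limb markers 6 were tested and 3 were called higher, Umod being the brightest of the list, with summed intensities of 36962, 39793 and 39623 in the control and 61660, 60751 and 60685 in G200. Of the collecting duct principal cell markers 0 of 6 were called in limma's test (3 without adjustment, 0 with the methods' t-test). The counts of genes called higher and lower were 1 and 1 of 5 tested for intercalated cells, 1 and 0 of 5 for podocytes, 0 and 1 of 5 for endothelium, 2 and 0 of 7 for stroma and 2 and 1 of 8 for macrophages. The only tested marker of the distal convoluted tubule (Slc12a3) was not called. Of 2 tested lymphocyte markers 0 were called in limma's test (1 without adjustment, 0 with the methods' t-test). These counts are those with loess, where 11.6% of all genes were called higher and 25.9% lower. With median centring the genes called higher were 7 for the proximal tubule, 5 for the thick ascending limb, 5 for principal cells, 3 for intercalated cells, 2 for podocytes, 2 for endothelium, 6 for stroma and 2 for macrophages, and 0 were called lower by limma. With no dye normalization they were 9, 5, 5, 3, 4, 2, 6 and 5 in the same order, and Slc12a3 was called higher. The share of all genes called higher was 35.2% with median centring and 56.5% with no dye normalization. In bulk tissue, fewer cells of a type and less RNA per cell cannot be told apart, and the part of these cell types in the antioxidant genes was not tested.

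Prdx3, the peroxiredoxin found only in mitochondria, changed most. The normalized log2 intensity of its probe was 8.83, 8.61 and 8.72 in the control and 9.62, 9.08 and 9.32 in G200 (replicates 1, 2 and 3). The G200 values all lay above the control values, with replicate 1 the highest. On the 3 arrays its log2 ratio was 0.79, 0.48 and 0.59, a mean of 0.62 ± 0.16 (SD, n = 3, limma adjusted p = 0.00355).

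Prdx5, whose protein is sorted to mitochondria and also to peroxisomes and the cytosol, had normalized log2 intensities of 11.85, 11.71 and 11.69 in the control and 12.32, 11.86 and 12.15 in G200. The groups were apart, but replicate 2 of G200 stood only slightly above the highest control value. Its log2 ratio was 0.47, 0.15 and 0.46 (mean 0.36 ± 0.18, SD, n = 3, limma adjusted p = 0.0221). Txn2 is the mitochondrial thioredoxin that recharges Prdx3 and Prdx5. Its intensities were 7.68, 7.70 and 7.72 in the control and 8.23, 7.82 and 8.04 in G200, again with no overlap and with replicate 2 lowest in G200. The log2 ratio was 0.55, 0.12 and 0.33 (mean 0.33 ± 0.21, SD, n = 3, limma adjusted p = 0.0366).

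Sod2, the manganese superoxide dismutase, had normalized log2 intensities of 8.36, 8.47 and 8.59 in the control and 8.62, 8.88 and 8.76 in G200. The groups did not overlap, though the lowest G200 value nearly met the highest control value. The log2 ratio was 0.26, 0.41 and 0.16 (mean 0.28 ± 0.13, SD, n = 3, limma adjusted p = 0.0315). Sod2 was the only one of the 4 mitochondrial genes with its largest ratio on replicate 2, where the other 3 had their smallest.

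**Figure D1:**
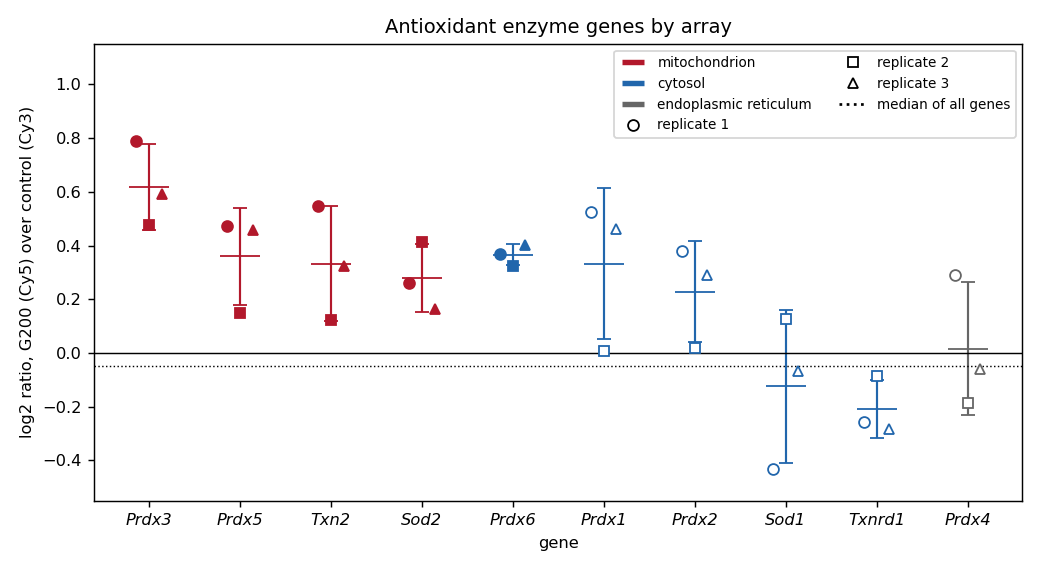
Log2 ratio of G200 over control for the 10 genes on each array (symbols), with the mean and SD over 3 arrays (horizontal mark and bar), coloured by compartment. Filled symbols mark genes called in limma's test. The 4 mitochondrial genes, Prdx6, Prdx1 and Prdx2 lie above 0 on every array with loess scaling, and Sod1 and Txnrd1 have means below 0 that turn positive without dye normalization (Sod1 also with median centring).

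The promoters of the mitochondrial genes are shown because these 4 genes were higher together, with that of Prdx1 for comparison as a cytosolic gene. They come from RefSeq on the rat build GRCr8 and run from 250 bases before to 50 bases after the gene's start, 5′ to 3′ on the gene's strand. Capitals mark each match to TGACNNNGC, the core of the antioxidant response element bound by Nrf2, on either strand (read as GCNNNGTCA on the other strand). Prdx3 lies on the minus strand at chr1:270000062-270000361, Prdx5 on the minus strand at chr1:213531978-213532277, Txn2 on the minus strand at chr7:111390891-111391190, Sod2 on the minus strand at chr1:50050119-50050418 and Prdx1 on the plus strand at chr5:135383656-135383955.
Prdx3: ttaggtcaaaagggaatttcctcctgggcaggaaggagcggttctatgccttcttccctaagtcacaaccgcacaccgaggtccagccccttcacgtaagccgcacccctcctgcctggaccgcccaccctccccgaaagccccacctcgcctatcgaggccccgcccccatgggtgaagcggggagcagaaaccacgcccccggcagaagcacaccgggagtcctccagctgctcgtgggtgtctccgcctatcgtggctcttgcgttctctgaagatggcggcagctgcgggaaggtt
Prdx5: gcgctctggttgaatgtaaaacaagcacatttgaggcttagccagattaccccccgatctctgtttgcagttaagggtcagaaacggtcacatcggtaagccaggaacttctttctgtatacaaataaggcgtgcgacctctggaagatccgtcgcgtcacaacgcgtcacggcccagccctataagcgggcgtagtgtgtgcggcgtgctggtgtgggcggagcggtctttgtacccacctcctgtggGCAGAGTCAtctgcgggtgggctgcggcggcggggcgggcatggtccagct
Txn2: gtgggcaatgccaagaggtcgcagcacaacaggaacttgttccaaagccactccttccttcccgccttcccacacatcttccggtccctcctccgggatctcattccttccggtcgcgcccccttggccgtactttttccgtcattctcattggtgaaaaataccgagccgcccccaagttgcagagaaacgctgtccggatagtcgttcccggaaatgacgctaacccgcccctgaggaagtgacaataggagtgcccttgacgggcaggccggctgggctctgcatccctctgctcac
Sod2: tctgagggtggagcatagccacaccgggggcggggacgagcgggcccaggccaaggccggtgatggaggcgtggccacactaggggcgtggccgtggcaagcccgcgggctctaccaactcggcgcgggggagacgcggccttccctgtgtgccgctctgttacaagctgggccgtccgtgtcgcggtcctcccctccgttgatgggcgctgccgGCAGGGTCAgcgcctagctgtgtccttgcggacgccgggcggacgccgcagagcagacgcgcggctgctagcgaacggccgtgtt
Prdx1: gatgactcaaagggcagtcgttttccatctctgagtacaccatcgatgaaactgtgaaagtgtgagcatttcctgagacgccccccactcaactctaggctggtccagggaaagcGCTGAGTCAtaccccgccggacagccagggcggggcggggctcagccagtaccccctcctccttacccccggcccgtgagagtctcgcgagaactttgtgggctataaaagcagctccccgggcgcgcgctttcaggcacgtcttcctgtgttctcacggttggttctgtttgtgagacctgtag

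A match was present in the Prdx5, Sod2 and Prdx1 windows and absent from those of Prdx3 and Txn2. Promoter windows were available for 9 of the 10 genes (10 windows, Txnrd1 having 2), and 5 of these 9 genes held a match, also counting Prdx4 and 1 of the windows of Txnrd1. Of all 33469 promoter windows of the same length, 12.1% held one. Genes with a match were thus found among those called higher (Prdx5 and Sod2) and among those not called (Prdx1, Prdx4 and Txnrd1). CGCATGCG, the core recognised by nuclear respiratory factor 1, is its own reverse complement. It was present in 0 of the 10 windows and in 1.66% of all. A match describes letters in a window and does not show binding.

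Among the cytosolic genes, Prdx6 gave the steadiest values. Prdx6 is the peroxiredoxin with a single reactive cysteine, is recharged by glutathione and also acts on phospholipids. Its normalized log2 intensity was 9.26, 9.32 and 9.46 in the control and 9.63, 9.65 and 9.86 in G200, without overlap. Its log2 ratio was 0.37, 0.32 and 0.40, a mean of 0.37 ± 0.04 (SD, n = 3, limma adjusted p = 0.00839), and the SD was the smallest among the 10 genes.

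Prdx1 and Prdx2, the abundant cytosolic peroxiredoxins that depend on thioredoxin, were not called. Prdx1 had normalized log2 intensities of 10.34, 10.26 and 10.12 in the control and 10.87, 10.27 and 10.59 in G200, and Prdx2 had 10.79, 10.63 and 10.65 in the control and 11.17, 10.65 and 10.94 in G200. In both genes the groups overlapped, because replicate 2 of G200 fell within the range of the control. The log2 ratio of Prdx1 was 0.53, 0.01 and 0.46 (mean 0.33 ± 0.28, SD, n = 3, limma adjusted p = 0.0605). That of Prdx2 was 0.38, 0.02 and 0.29 (mean 0.23 ± 0.19, SD, n = 3, limma adjusted p = 0.0874). The mean of Prdx1 was as large as that of Txn2, which was called, and the difference between these genes within an array, 0.00 ± 0.13 (Txn2 minus Prdx1, SD, n = 3), was smaller than its spread. Both became calls without replicate 2, with log2 ratios of 0.49 for Prdx1 (limma adjusted p = 0.0143) and 0.33 for Prdx2 (limma adjusted p = 0.0323).

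Sod1, the copper and zinc superoxide dismutase, showed no steady direction. Its normalized log2 intensity was 14.59, 14.48 and 14.62 in the control and 14.16, 14.61 and 14.56 in G200. The groups overlapped, and replicate 1 of G200 alone stood well below the control. As log2 ratios this was -0.43, 0.13 and -0.07 (mean -0.12 ± 0.28, SD, n = 3, limma adjusted p = 0.414). The deposited median intensity of its spot was 14438 to 16836 in green and 29399 to 36922 in red, at the bright end of the array and not saturated, and its value moved most with the scaling, to 0.74 with median centring and 1.09 with no dye normalization.

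Txnrd1, the cytosolic thioredoxin reductase, was measured near background. The probe that stood for it had median intensities of 63, 66.5 and 65 in green over local backgrounds of 23, 23.5 and 22, and 92, 85 and 83 in red over 51.5, 51 and 51. Its normalized log2 intensity was 6.54, 6.61 and 6.62 in the control and 6.29, 6.52 and 6.34 in G200. The G200 values lay below the control values without overlap. The log2 ratio was -0.26, -0.08 and -0.28 (mean -0.21 ± 0.11, SD, n = 3, limma adjusted p = 0.0659). The other probe of the gene gave 0.06, 0.07 and -0.01 (mean 0.04 ± 0.04, SD, n = 3), so the 2 probes differed in sign, and that probe was well above background in red on 2 of the 3 arrays. The first probe was called lower with a normexp offset of 0 in place of 50 (log2 ratio -0.48, limma adjusted p = 0.0373) and without replicate 2 (-0.27, limma adjusted p = 0.0478), and no call was made under any other setting tried.

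Prdx4 works in the endoplasmic reticulum, where it takes up peroxide made during disulfide formation. Its normalized log2 intensity was 7.27, 7.07 and 7.18 in the control and 7.56, 6.88 and 7.13 in G200. The groups overlapped, with replicate 1 of G200 above and replicate 2 below every control value. As log2 ratios this was 0.29, -0.19 and -0.06, a mean of 0.02 ± 0.25 (SD, n = 3, limma adjusted p = 0.914).

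**Figure D2:**
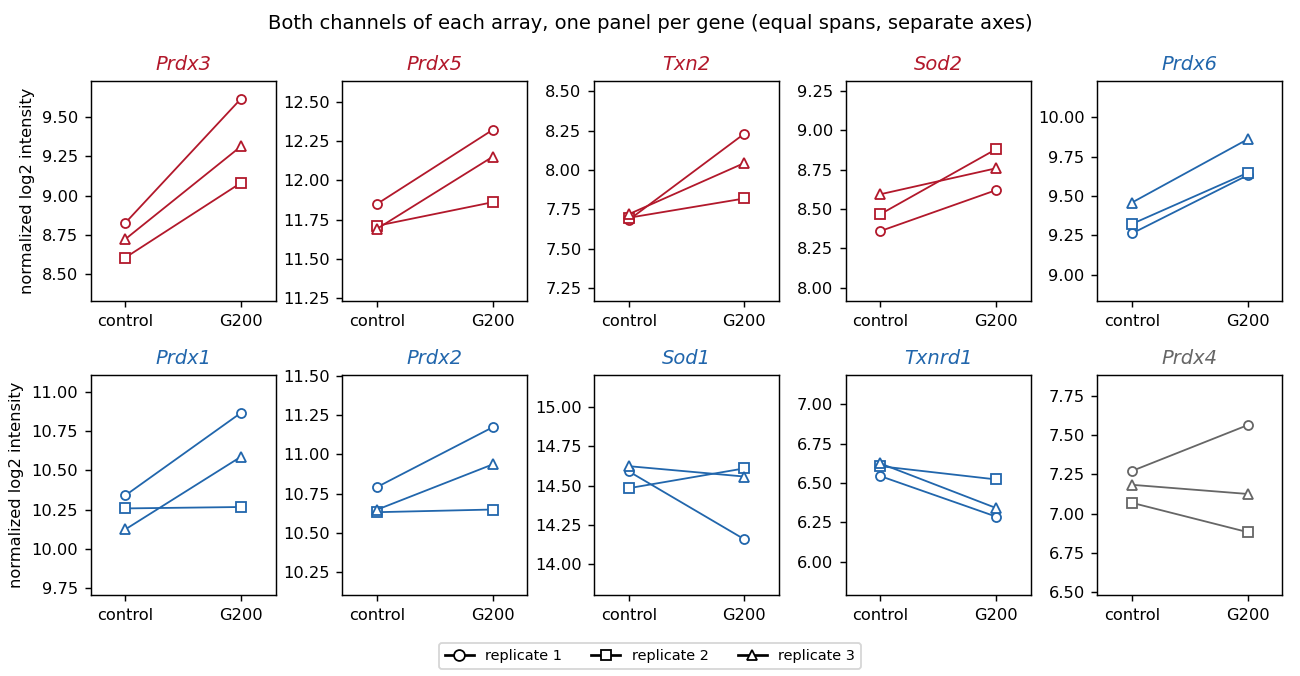
Normalized log2 intensity of the control (Cy3) and G200 (Cy5) channels for the 10 genes, 1 panel per gene with its own axis of equal span, lines joining the channels of an array. The G200 values of Prdx1, Prdx2, Prdx3, Prdx4, Prdx5 and Txn2 are lowest on replicate 2.

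Ordered by their mean log2 ratio, the genes ran Prdx3, Prdx6, Prdx5, Txn2, Prdx1, Sod2, Prdx2, Prdx4, Sod1 and Txnrd1. Prdx3 exceeded Prdx6, the next in this order, on all 3 arrays, by 0.42, 0.15 and 0.19 (mean 0.25 ± 0.15, SD). Prdx2 exceeded Prdx4 on all 3 arrays, by 0.09, 0.20 and 0.35. The other 7 pairs of neighbours differed by less than the SD of their difference. Replicate 1 had the largest ratio in Prdx1, Prdx2, Prdx3, Prdx4, Prdx5 and Txn2, and replicate 2 had the smallest ratio in each of these genes.

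Compared within each array, the mitochondrial genes stood above the cytosolic genes. Their mean log2 ratio was 0.52, 0.29 and 0.38 on replicates 1, 2 and 3, against 0.12, 0.08 and 0.16 for the cytosolic genes. The difference was 0.40, 0.21 and 0.22, positive on all 3 arrays, with a mean of 0.28 ± 0.11 (SD, n = 3), larger than its spread. A scaling shift common to all genes of an array cancels in this difference, and many of the other settings could not move it. Among those that could, its mean ran from 0.09 without Sod1 and Txnrd1 to 0.41 with the log ratio written by Feature Extraction (0.17 with medians over the genes in place of means). No p is given, since the genes are not replicates and were chosen with earlier results known.

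With loess, most of the difference came from Sod1 and Txnrd1, the pair of cytosolic genes with means below 0. With median centring the difference was 0.30, but Sod1 had 0.74. Txnrd1, measured near background, had -0.17 there and was the only cytosolic gene below 0. Prdx1 (1.05), Prdx2 (0.96) and Prdx6 (1.03) lay within the range of the mitochondrial genes there, from 0.83 for Txn2 to 1.25 for Prdx3. The omissions that follow were made with loess only. In choices made after seeing the data, the difference was 0.22 ± 0.05 without Sod1 and 0.20 ± 0.10 without Txnrd1 (SD, n = 3). Without both it was 0.09, 0.17 and 0.00 (mean 0.09 ± 0.09, SD, n = 3), so no gap was left on replicate 3. Among peroxiredoxins alone, Prdx3 and Prdx5 averaged 0.63, 0.31 and 0.52 and the cytosolic Prdx1, Prdx2 and Prdx6 averaged 0.43, 0.12 and 0.38. That difference was 0.21, 0.20 and 0.14 (mean 0.18 ± 0.04, SD, n = 3), but it rested on Prdx3, since Prdx5 alone exceeded the cytosolic peroxiredoxins by 0.05, 0.03 and 0.07 (mean 0.05 ± 0.02, SD, n = 3). For the dismutases with loess, Sod2 minus Sod1 was 0.69, 0.29 and 0.23 (mean 0.40 ± 0.25, SD, n = 3). Their means lay closer together with median centring (0.87 for Sod2 and 0.74 for Sod1) and with no dye normalization (1.22 and 1.09). With the Feature Extraction log ratio they lay further apart (0.49 and -0.10).

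**Figure D3:**
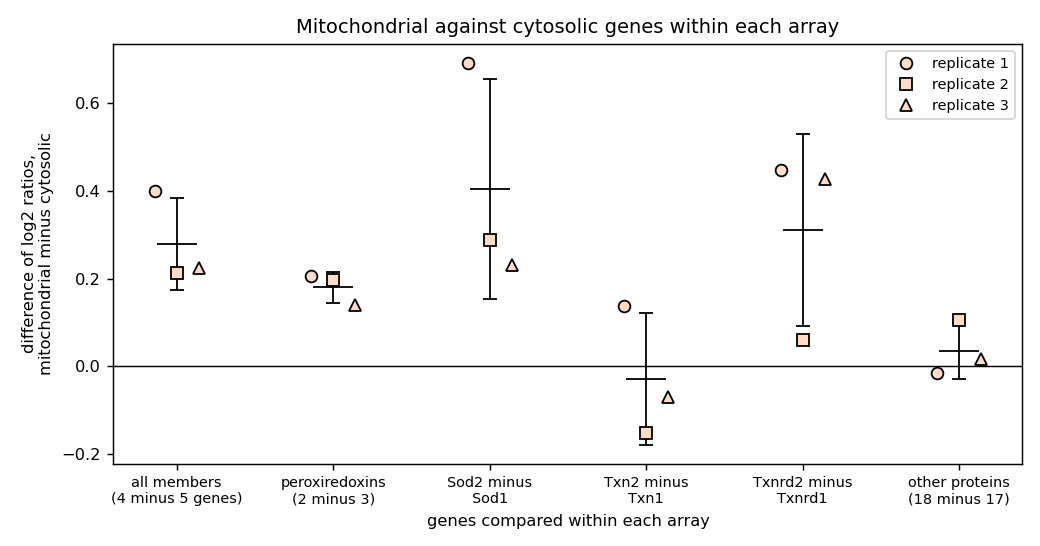
Difference of log2 ratios, mitochondrial minus cytosolic, within each array (symbols) with the mean and SD over 3 arrays, for all 9 genes, the peroxiredoxins, 3 pairs of related genes and a set of other mitochondrial and cytosolic proteins. The differences of the antioxidant genes are positive on all arrays apart from Txn2 minus Txn1, which changes sign (as does Txnrd2 minus Txnrd1 with the other Txnrd1 probe), and the other proteins average 0.03 (0.10 without Etfb).

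With loess the gap was not seen in the thioredoxins. Txn1, the cytosolic thioredoxin, had log2 ratios of 0.41, 0.28 and 0.40 (mean 0.36 ± 0.07, SD, n = 3, limma adjusted p = 0.0101) and was called higher, like Txn2. Txn2 minus Txn1 was 0.14, -0.15 and -0.07. The order of these genes depended on the setting. Txn2 had 0.59 and Txn1 0.37 with the Feature Extraction log ratio, against 0.83 and 1.17 with median centring. In proteins outside redox defence the gap depended on 1 gene. The 18 tested genes of other mitochondrial proteins averaged 0.21, 0.14 and 0.17, the 17 tested cytosolic enzymes 0.22, 0.03 and 0.15, and the difference of 0.03 ± 0.06 (SD, n = 3) was smaller than its spread. Without Etfb, a choice made after seeing the data, the difference was 0.06, 0.15 and 0.09 (mean 0.10 ± 0.05, SD, n = 3). Among the mitochondrial proteins 8 were called higher, led by Etfa (0.58), a subunit of electron transfer flavoprotein, and Slc25a5 (0.52), an ADP and ATP carrier, and 1, Etfb (-0.95, the partner of Etfa), was called lower. Etfb was not called with median centring (-0.15) and turned positive without dye normalization. Among the cytosolic enzymes 6 were called higher, led by Akr1a1 (0.71) and Mdh1 (0.57), and 2 lower, Acly (-0.32) and Gpi (-0.25), both of which turned positive with median centring or no dye normalization. Of all genes, 11.6% were called higher and 25.9% lower with loess. With median centring limma called 17 higher and 0 lower (mitochondrial) and 14 and 0 (cytosolic), beside 35.2% of all genes called higher. Without dye normalization the counts were 17 and 0 for both lists, beside 56.5% of all genes called higher. The median log2 ratio with loess was 0.18 for the mitochondrial proteins and 0.08 for the cytosolic enzymes. Without replicate 3 the calls of Txn1 (0.34), Etfa (0.58), Slc25a5 (0.48), Akr1a1 (0.67), Mdh1 (0.50), Acly (-0.25) and Gpi (-0.31) were lost. Without replicate 1 those of Slc25a5 (0.35), Acly (-0.29) and Gpi (-0.21) were lost, and without replicate 2 that of Gpi (-0.24).

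Of the calls with all 3 arrays, only that of Prdx3 was made whichever array was left out. Without replicate 1, only Prdx3 and Prdx6 of the 10 were called higher, beside 6.08% of all genes, and the log2 ratios of Prdx5, Txn2 and Sod2 were 0.30, 0.22 and 0.29 (limma adjusted p of 0.0677, 0.130 and 0.0688). Without replicate 3, only Prdx3 was called (log2 ratio 0.63, limma adjusted p = 0.0359), beside 1.28% of all genes called higher, and limma's adjusted p was 0.0829 for Prdx6, 0.150 for Prdx5, 0.161 for Txn2 and 0.0974 for Sod2. Without replicate 2, 6 of the 10 were called higher, beside 11.4% of all genes, Prdx1 and Prdx2 now among them, 1 (Txnrd1) was called lower, and Sod2 was lost (limma adjusted p = 0.0903). In each case the 5 genes kept log2 ratios above 0.

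Other settings also ended calls. With the log ratio written by Feature Extraction, Prdx5 was not called (0.39, limma adjusted p = 0.0561), and Txn2 and Sod2 had larger values of 0.59 and 0.49. With a normexp offset of 0, Sod2 was not called (0.32, limma adjusted p = 0.0737). With the channels fitted separately, without pairing by array, only Prdx3 and Prdx6 were called, both higher. Beside them 7.18% of all genes were called higher, and 4096 of 14179 in either direction. The methods' t-test on the channels, with a Benjamini-Hochberg adjustment that the methods do not state for it, called 0 of the 10 genes and 337 of all genes. Its form for the log ratios against 0 called 0 of the 10 and 2 of all genes, where limma called 5316.

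**Figure D4:**
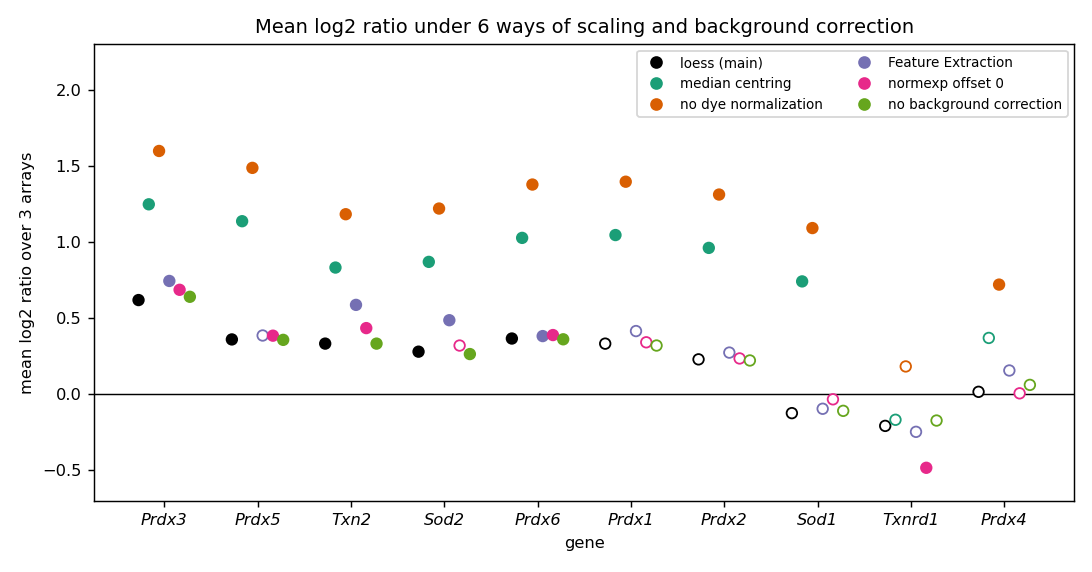
Mean log2 ratio over 3 arrays for the 10 genes under 6 ways of scaling the dyes and correcting the background, filled where limma's adjusted p was under 0.05. Prdx3, Prdx6 and Txn2 are positive and called under all 6 (Txn2 with a normexp offset of 0 barely), Sod1 turns positive with median centring and with no dye normalization, and Txnrd1 turns positive with no dye normalization.

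Genes of proteins that work with these enzymes went in both directions. Their calls come from limma with all 3 arrays, and without replicate 3 the number of genes called was 1611 in place of 5316. Of 15 thioredoxin partners 12 were on the array and 10 were tested, of which 3 were called higher and 1 lower, with a median log2 ratio of 0.07 against -0.05 over all genes. The shares of all genes were 11.6% and 25.9%. The partners' counts became 6 higher and 0 lower in limma with median centring, beside 35.2% of all genes called higher. With no dye normalization they were 8 and 0, beside 56.5% of all genes called higher. Txnip, which binds thioredoxin and blocks it, was called higher, averaging 0.69 ± 0.38 (SD, n = 3, limma adjusted p = 0.0127), with its smallest value of 0.35 on replicate 2. Beside Txnip and Txn1, Txndc12, a thioredoxin-like protein of the endoplasmic reticulum, was called higher (0.28, limma adjusted p = 0.0452). Sesn3, a sestrin, was called lower with -0.56, -0.34 and -0.50 (mean -0.47 ± 0.12, SD, n = 3, limma adjusted p = 0.00599), a sign that turned with median centring and with no dye normalization. Srxn1, the sulfiredoxin that repairs overoxidised peroxiredoxins, had 0.01, 0.35 and -0.26 and was not called, but it was called higher with median centring (0.59) and with no dye normalization (0.94), and its mean was -0.12 without replicate 2. Txnrd2, the reductase that serves Txn2 in mitochondria, had 0.19, -0.02 and 0.14 and was not called either (limma adjusted p = 0.302). Txnrd2 was called higher with no dye normalization (0.61, limma adjusted p = 0.0391). With the Feature Extraction log ratio it had 0.38 and was not called. Without replicate 3 the calls of Txnip (0.72), Txn1 (0.34), Txndc12 (0.23) and Sesn3 (-0.45) were lost, and without replicate 1 that of Txndc12 (0.22). Txndc12 was also not called with a normexp offset of 0 (0.43), with the filter in both colours or with separate channels, nor Txnip with separate channels.

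In the glutathione system 15 of 18 genes were tested, 3 were called higher and 5 lower, against 11.6% and 25.9% of all genes. The counts turned to 9 higher and 1 lower with median centring, beside 35.2% of all genes called higher. By limma with no dye normalization they were 13 higher and 0 lower, beside 56.5% of all genes called higher. Gclc, the catalytic subunit of the enzyme that limits glutathione synthesis, was higher (0.47, limma adjusted p = 0.00948), as was the plasma glutathione peroxidase Gpx3, made in the proximal tubule (0.47, limma adjusted p = 0.0470). The value of Gpx3 rested on replicate 1 (0.92, against 0.21 and 0.27) and was 0.24 without it. Its call was lost when any replicate was left out (0.60 without replicate 2 and 0.57 without replicate 3). It was also lost with robust eBayes, with the filter in both colours, with a normexp offset of 0 and with separate channels. Chac1 (-0.75) and Ggct (-0.62), both of which act in glutathione breakdown, were lower. Ggct turned positive with median centring or no dye normalization, and Chac1 was not called with no dye normalization (-0.21) and was -1.43 with the Feature Extraction log ratio. Among 7 tested genes of other peroxide and superoxide enzymes, Msrb1, a methionine sulfoxide reductase, was higher (0.28) and Park7 (-0.41) and catalase, Cat (-0.26), were lower. This list had 4 genes higher and 0 lower by limma with median centring and 7 and 0 with no dye normalization. Park7 and Cat turned positive with median centring or no dye normalization. The calls of Msrb1 and Cat were lost when any replicate was left out (0.25 to 0.32 and -0.28 to -0.23), and without replicate 3 so were those of Gclc (0.44) and Ggct (-0.58). With a normexp offset of 0 those of Msrb1 (0.32) and Cat (-0.31) were lost. With the Feature Extraction log ratio those of Ggct (-0.56) and Cat (-0.30) were lost, and with separate channels that of Ggct.

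Of 12 tested oxidases and related producers 0 were called higher in limma's test (2 without adjustment, 0 with the methods' t-test) and 2 lower, Acox2 (-0.31) and Ncf1 (-0.23), of which Ncf1 turned positive with median centring and both did so without dye normalization. The counts were 4 higher and 0 lower by limma with median centring and 8 higher and 0 lower without dye normalization. Of all genes, 11.6% were called higher and 25.9% lower with loess. The share called higher was 35.2% with median centring and 56.5% without dye normalization. Acox2 did not pass the stricter filter that asks for signal in both colours, and its value was -0.82 with a normexp offset of 0 and -1.42 with the Feature Extraction log ratio. The call of Ncf1 was lost when any replicate was left out (-0.26 to -0.20), and that of Acox2 without replicate 3 (-0.31). For NADPH, 3 of 9 tested genes were called higher and 2 lower with loess, beside 11.6% and 25.9% of all genes. Idh1 (0.45) and the mitochondrial transhydrogenase Nnt (0.43) were the largest rises. Aldh1l1 (-0.42) was called lower, a sign that turned with median centring and with no dye normalization. This list had 7 genes higher and 0 lower by limma with median centring and 8 and 0 with no dye normalization. The call of Nnt was lost without replicate 1 (0.28) or 3 (0.39), with a normexp offset of 0 (0.45) and with separate channels. That of Idh1 was lost without replicate 2 (0.45) and that of Aldh1l1 without replicate 3 (-0.35).

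In the list of Nrf2 and its targets 12 of 18 genes were tested. With loess 1 (Gclc) was called higher and 3 were called lower, beside 11.6% and 25.9% of all genes. The counts became 4 higher and 0 lower in limma with median centring, beside 35.2% of all genes called higher. With no dye normalization they were 8 and 0, beside 56.5% of all genes called higher. With loess the largest falls were Blvrb (-0.69) and Ftl1 (-0.62), which encodes the ferritin light chain. With median centring Ftl1 turned positive and Blvrb was not called (-0.02), and both were positive without dye normalization. The classical targets Nqo1, Hmox1, Gclm and Slc7a11 were on the array but not well above background on all arrays in either colour, so they were not tested. Among 5 tested regulators of mitochondrial genes, Tfam, which packages and transcribes mitochondrial DNA, was called higher (0.26, limma adjusted p = 0.0252). Its call was lost when any replicate was left out (0.23 to 0.28) and with a normexp offset of 0 (0.30), while with loess Blvrb and Ftl1 were called lower whichever replicate was left out. Gclc was not called without replicate 3 (0.44).

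**Figure D5:**
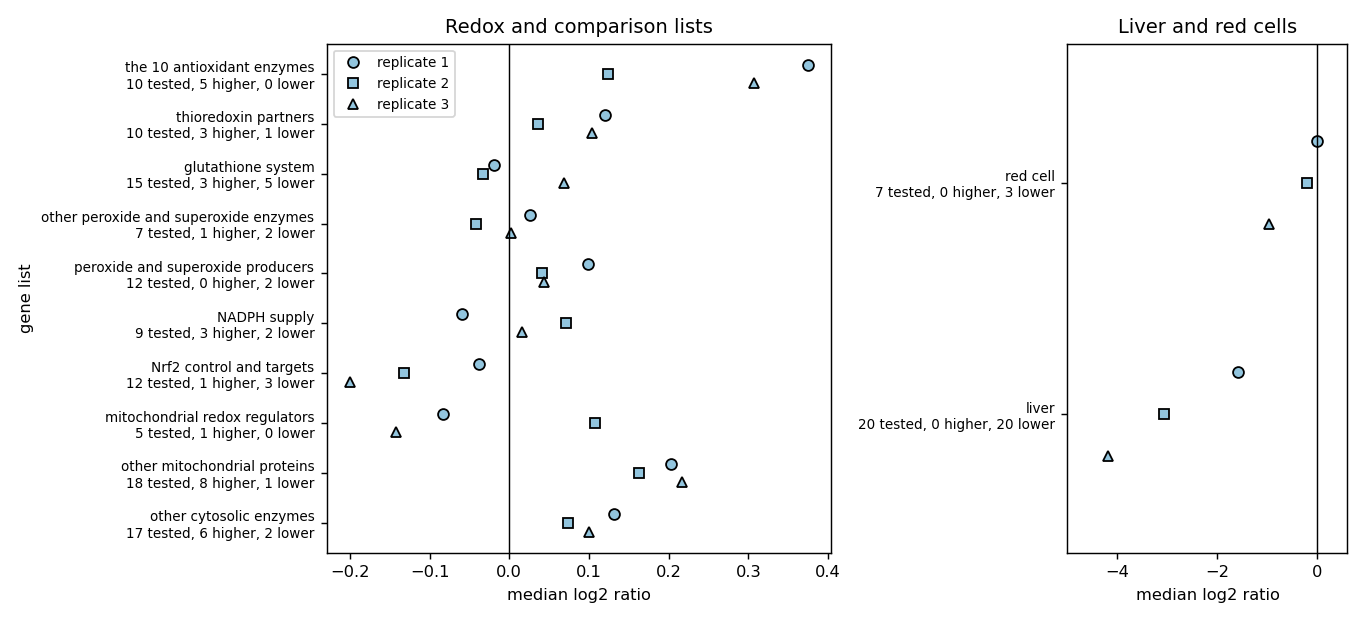
Median log2 ratio of each gene list on each array (symbols), with the numbers of genes tested and called, for the redox lists and comparison lists and, on a wider axis, for red cell and liver markers. The 10 antioxidant genes have medians of 0.37, 0.12 and 0.31 on replicates 1, 2 and 3, and the liver markers lie between -1.59 and -4.19. With median centring or no dye normalization the medians below 0 of the glutathione, NADPH, Nrf2 and red cell lists turn positive.

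The 5 genes with symbols whose ratios lay closest to those of Prdx3 over the 3 arrays, by Euclidean distance, were Churc1 (0.04), Tm9sf2 (0.07), Gdi2 (0.08), Skp1 (0.08) and Etfa (0.09). Their mean log2 ratios ran from 0.58 for Etfa to 0.63 for Skp1, each with its largest value on replicate 1 and its smallest on replicate 2.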

How the data were processed

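The authors deposited 1 table per array, written by Agilent Feature Extraction 11.5.1.1 according to the file headers (9.3.2.1 in the labels). The deposited intensities are, per the file headers, medians over the pixels of spots and of local background in both colours, to which the authors applied no correction. The design assumed mean intensities, and the median was used because the tables lack the mean. The deposited log10 ratio, which the authors obtained with Feature Extraction's own background and dye correction, served as an alternative. In limma 3.58.1 under R 4.3.3, background was corrected by normexp (offset 50) and dyes by loess within arrays. Control and outlier spots were dropped and replicate spots averaged. RefSeq accessions (GRCr8) gave 18355 of 30367 probes (60.4%) a symbol. Kept were 15649 probes well above background, in most of their spots, on all 3 arrays in one colour, and the brightest probe represented its gene. Per array and colour, 56.6% to 63.0% of spots were well above background. For each of 14179 genes limma (lmFit, eBayes) tested whether the mean log2 ratio differed from 0, two-sided, adjusted by Benjamini-Hochberg. The design's count of the control as 1 sample did not enter this fit. Channel levels were scaled by Aquantile. The steps were tested on simulated data. From each list, at most the 2 largest rises and the 2 largest falls among called genes are named, but any thioredoxin partner or other peroxide or superoxide enzyme may be. The 10 genes and the lists were chosen with earlier results of these data known.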

Additional observations from a re-analysis of the deposited data

How the results depend on the processing

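The cause of the differences was not tested. The Feature Extraction log ratio changed background and dye correction together, and the methods' t-test on 2 channels changed the test and the pairing. Since 1 slide held every array, no fit with slide as a random block was made. The alternatives without Txnrd1, without Sod1, without both, without Etfb, with peroxiredoxins only (also without Prdx3) and with the other Txnrd1 probe were chosen after seeing the data.

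With median centring 4990 genes were called higher and 1245 lower, 8 of the 10 antioxidant genes higher. Signs turned for Sod1 (0.74), Sesn3 (0.0865), Ggct (0.15), Park7 (0.38), Cat (0.32), Ncf1 (0.32), Aldh1l1 (0.20), Ftl1 (0.28), Acly (0.42) and Gpi (0.48). With no dye normalization 8314 genes were called, 8010 higher and 304 lower, 9 of the 10 higher. Signs turned for Txnrd1 (0.18), Sod1 (1.09), Sesn3 (0.44), Ggct (0.50), Park7 (0.73), Cat (0.67), Acox2 (0.0125), Ncf1 (0.67), Aldh1l1 (0.55), Blvrb (0.33), Ftl1 (0.63), Etfb (0.20), Acly (0.77) and Gpi (0.83).

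The difference between mitochondrial and cytosolic genes was 0.41 with the Feature Extraction log ratio 0.17 with medians over genes and 0.0885 without Sod1 and Txnrd1. A normexp offset of 0 called 1 of the 10 genes lower, beside 3457 of the 14179 genes tested. Separate channels called 1018 genes higher, 2 of the 10 among them. The form of the methods' t-test for 3 log ratios against 0 called 2 genes, 0 higher and 2 lower, and 0 of the 10 (2 unadjusted, against 7 higher with limma). The methods' t-test on 2 channels called 337 genes, 54 higher and 283 lower, and 0 of the 10 (3 unadjusted).

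Leaving out 1 replicate gave 1611 to 4965 genes called, 182 to 1616 higher and 1429 to 3349 lower, with 1 to 6 of the 10 higher and 0 to 1 lower. Sod1 ranged from -0.249 (without replicate 2) to 0.0297 (without replicate 1), Prdx4 from -0.122 (without replicate 1) to 0.117 (without replicate 2), and Srxn1 became -0.12 without replicate 2, though it was called higher with median centring (0.59) and no dye normalization (0.94). The other Txnrd1 probe gave 0.0422.

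All 10 genes kept their sign and call with no background correction, with either other filter, with the mean of passing probes, with outlier spots kept and with robust eBayes. For the other named genes, 361 of the values under alternatives kept sign and call, 125 lost the call, 3 gained it and 22 turned sign.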
